A study of Glycine max with 5 samples.

Results

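NAC transcription factors were followed in mature soybean (Glycine max) pollen and in sporophytic tissues of soybean seedlings, measured on the Affymetrix GeneChip Soybean Genome array. The members are all soybean probe sets whose only gene symbol in the array annotation is NAC followed by a digit. This gave 30 of 37593 probe sets, which stand for 15 of the 6029 genes that the annotation names by a single symbol. Of these genes 6 had 1 probe set and 9 had several, with NAC3 leading at 5. A probe set is the group of short oligonucleotides that reports on 1 transcript. Probe sets of 1 gene are told apart here by their mean log2 signal over the 5 arrays, from the brightest to the dimmest.

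Pollen was taken from untreated plants of the cultivar Bragg grown at 30 °C with 16 hours of light and 8 hours of dark, in which a 12 hour photoperiod then induced flowering. It was hybridised to 3 arrays, one per biological replicate. Sporophytic RNA came from 10-day-old seedlings of the same cultivar and was hybridised to 2 arrays, also biological replicates. The methods name primary stem, primary roots and mature leaves as its source. The results text names leaves and stems where it introduces the comparison, and stems, roots and leaves where it describes the scatter plot. No agent or mutation distinguishes the groups, and each sporophytic sample is a mixture of organs. In such bulk RNA, fewer cells of a type and less RNA per cell cannot be told apart.

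NAC proteins take their name from NAM of petunia and from ATAF1, ATAF2 and CUC2 of Arabidopsis. They bind DNA through a conserved domain at the amino end and activate or repress transcription through a variable carboxyl end. Plants carry many of them, and different members act in organ boundaries, in wood and fibre walls, in leaf senescence and in responses to drought, salt and wounding. The members of the stress responsive branch are often called SNAC, a name that the RefSeq gene table gives as a synonym for NAC3 (SNAC23), NAC12 (SNAC62) and NAC27 (SNAC49).

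The values are log2 signals after Robust Multiarray Averaging (RMA). Their median over all soybean probe sets lay between 4.11 and 4.24 on the pollen arrays and between 5.25 and 5.43 on the sporophytic arrays, so that the median of the group means was shifted by -1.15 in pollen. A signal of 100 on the linear scale, the minimum named in the methods, corresponds to 6.64 on the log2 scale and was reached by 18.4 to 19.9% of the probe sets on pollen arrays and by 33.7 to 35.9% on sporophytic arrays. The labels were checked on marker genes. The 12 probe sets annotated as pectinesterases and pectate lyases, enzymes of the pollen tube wall, all reached 100 on each pollen array and none did on a sporophytic array. Of 26 probe sets annotated as light-harvesting proteins of leaves, 25 reached 100 on both sporophytic arrays and between 3 and 5 on the pollen arrays. Both marker lists were drawn up by the study on these arrays. Of 10 probe sets of the leaf genes CAB3 and PSAD, chosen by symbol, 6 were lower in pollen and reached 100 on both sporophytic arrays, 1 dim one was higher, 3 were not called, and 4 reached 100 on every pollen array.

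A smaller share of the NAC probe sets than of all probe sets was called between pollen and the seedling tissues. At an adjusted p under 0.05 from limma's moderated test, pollen was higher for 6 of the 30 NAC probe sets, lower for 2 and not called for 22. Over all soybean probe sets 18.9% were called higher and 34.5% lower, against 20.0% and 6.67% of the NAC probe sets. The called probe sets thus made up 26.7% of the NAC probe sets and 53.4% of the whole array. The median log2 difference, pollen minus sporophytic tissues, was 0.37 over the NAC probe sets and -0.22 over all probe sets. All 3 pollen arrays lay above both sporophytic arrays for 11 NAC probe sets, and all lay below for 5. Over the whole array these patterns were found for 36.4 and 41.7% of the probe sets. The remaining 14 NAC probe sets overlapped between the groups. The split between higher and lower calls depended on the scaling, with 14 higher and 1 lower after quantile normalization of the soybean signals, and 17 higher and 2 lower after setting the array medians equal. The whole array shifted too, with 37.0 and 53.3% of all probe sets then called higher and 26.4 and 26.2% lower.

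**Figure D1:**
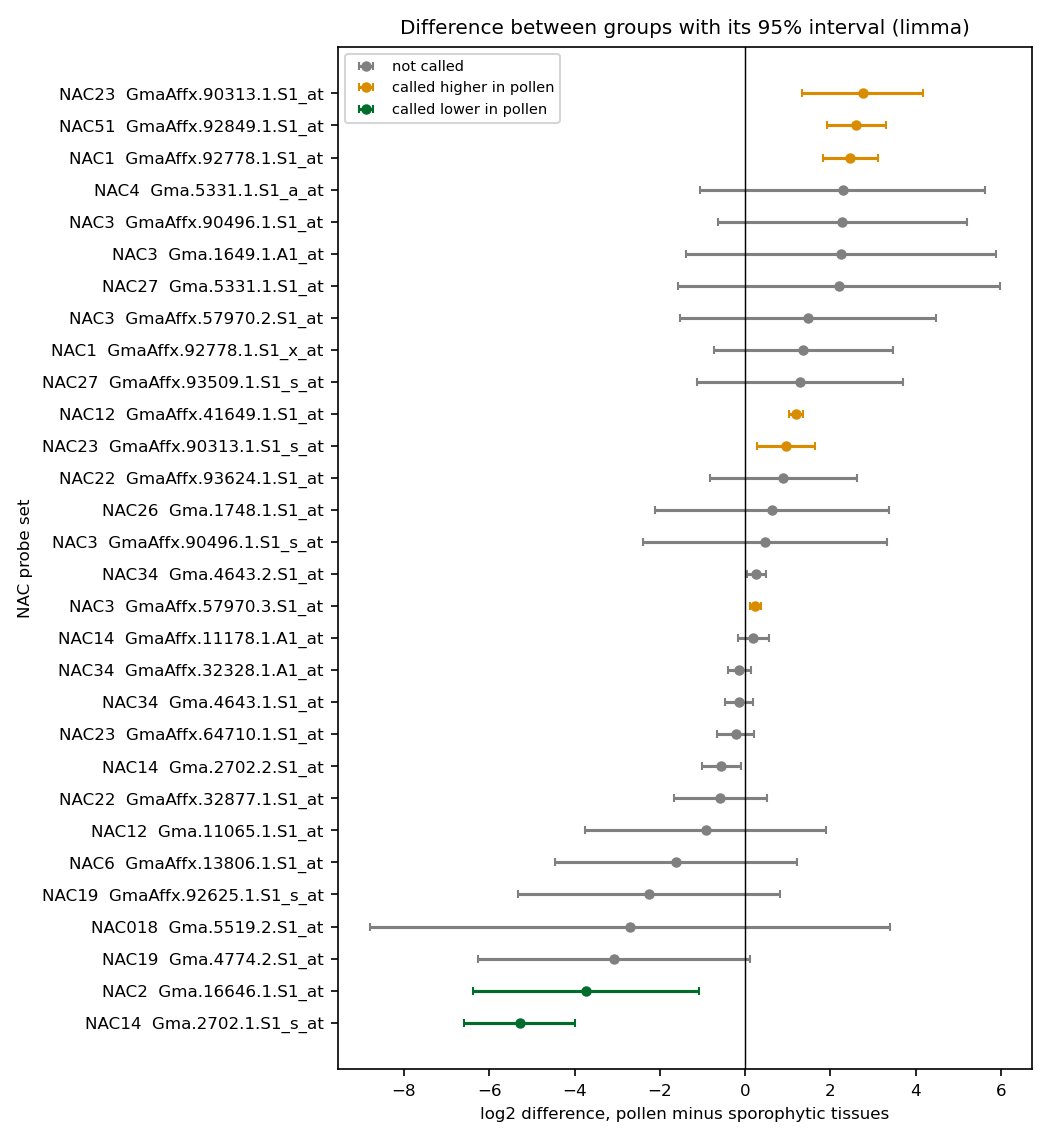
Log2 difference between the means of 3 pollen and 2 sporophytic arrays for each of the 30 NAC probe sets, labelled by gene symbol and probe set. Points are the estimates and bars their 95% intervals from limma, coloured by call. The 6 probe sets called higher and the 2 called lower have mostly short intervals, and the longest interval, that of NAC018, runs from -8.81 to 3.39.

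The NAC transcripts called higher in pollen came from 5 genes and were of moderate or low signal. NAC51 had log2 signals of 5.23, 5.83 and 5.86 on the pollen arrays and of 2.95 and 3.12 on the sporophytic arrays. NAC1, on the dimmer of its probe sets, was much alike, with 5.19, 5.77 and 5.76 in pollen and 3.06 and 3.16 in sporophytic tissues. In both genes every pollen array lay above both sporophytic arrays, and both sporophytic arrays were close to the lowest values of the family. The log2 difference was 2.61 ± 0.24 for NAC51 (adjusted p = 0.00216, limma) and 2.47 ± 0.23 for NAC1 (adjusted p = 0.00207), where the errors are standard errors as in all such values below. Both calls held without any single array.

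NAC23 was called higher by 2 of its 3 probe sets. The middle one by signal had 5.27, 6.75 and 5.71 in pollen and 3.14 and 3.17 in sporophytic tissues, which differ by 2.76 ± 0.50 (adjusted p = 0.0143, limma). Its pollen replicate 2 was the highest of the arrays and the only one above a signal of 100. The call was lost without pollen replicate 3 (adjusted p = 0.0533) and without sporophytic replicate 1 (0.0675) or replicate 2 (0.068), while the difference stayed between 2.74 and 2.86. The brightest, which comes from the same source sequence, read 4.91, 5.39 and 5.34 in pollen and 4.49 and 4.02 in sporophytic tissues and differed by 0.96 ± 0.24 (adjusted p = 0.034, limma). That call was lost without pollen replicate 2 (0.109), pollen replicate 3 (0.114) or sporophytic replicate 2 (0.116). The dimmest read 3.27 on all 3 pollen arrays and on sporophytic replicate 2, and 3.72 on sporophytic replicate 1.

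The last higher calls were small. NAC12, of the stress responsive branch, had 4.43, 4.43 and 4.52 in pollen and 3.24 and 3.30 in sporophytic tissues on its dimmer probe set. The groups were tight and well apart, by 1.19 ± 0.06 on the log2 scale (adjusted p = 0.000399, limma), and the call held in all 13 alternatives with a value for it, which leave out the minimum of a signal of 100, never reached by this probe set. NAC3 was called on its dimmest probe set, with a difference of 0.24 ± 0.04 (adjusted p = 0.0162 from limma) between signals of 2.54 to 2.55 and of 2.30 to 2.32. The call was lost without any one of the pollen arrays, with adjusted p between 0.0566 and 0.079. None of the 6 probe sets called higher reached a signal of 100 on every pollen array.

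The NAC probe sets that were bright on every pollen array were others, and they were not called. A signal of at least 100 on every pollen array was found for 5 NAC probe sets (16.7%, against 17.4% of all probe sets), namely 2 of NAC3 and 1 each of NAC4, NAC14 and NAC27. NAC27, also named SIN1 for its induction by salt, had 8.24, 8.72 and 8.65 in pollen, 8.34 in sporophytic replicate 1 and 4.30 in replicate 2 on its brighter probe set. NAC4 had 8.64, 9.07 and 8.73 in pollen, 8.31 in sporophytic replicate 1 and 4.74 in replicate 2. NAC3 had 8.53, 8.88 and 8.99 in pollen, 8.07 in sporophytic replicate 1 and 4.96 in replicate 2 on its brightest. In all 3 genes sporophytic replicate 1 stood next to the pollen arrays, and replicate 2 stood far below.

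For NAC27, NAC4 and NAC3 the mean differences were therefore of the size of the called ones, but their errors were larger. The bright NAC14 probe set differed by only -0.56 ± 0.16. NAC4 differed by 2.29 (95% interval -1.05 to 5.63, adjusted p = 0.187 from limma), NAC27 by 2.21 (-1.56 to 5.99, adjusted p = 0.24) and NAC3 by 2.28 (-0.64 to 5.20, adjusted p = 0.146). The annotation gives the same source sequence for the NAC4 probe set and for this NAC27 probe set, so their signals cannot be assigned to 1 gene with certainty. The second brightest NAC3 probe set had 7.61, 8.04 and 7.73 in pollen, 7.495 in sporophytic replicate 1 and 3.60 in replicate 2. On the third of NAC3 pollen had 6.05, 6.86 and 6.21, sporophytic replicate 1 had 6.45, within the range of the pollen arrays, and replicate 2 had 3.34.

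The probe sets called lower in pollen carry the symbols NAC14 and NAC2. NAC14 on its middle probe set by signal had 3.12, 3.83 and 2.96 in pollen and 8.06 and 9.12 in sporophytic tissues. It fell by 5.28 ± 0.46 on the log2 scale (adjusted p = 0.00181, limma), and the call held without any single array. NAC2, whose overexpression in tobacco is known to lower stress tolerance, had 4.48, 5.43 and 5.42 in pollen and 10.16 and 7.52 in sporophytic tissues. It fell by 3.73 ± 0.94 on the log2 scale (adjusted p = 0.0355, limma). All pollen arrays lay below both sporophytic arrays on both probe sets. The NAC14 one has probes that can bind transcripts of several genes, and the other NAC14 probe sets were not called. The NAC2 call was lost without any one pollen array, with adjusted p between 0.1 and 0.108, and with quantile normalized soybean probe sets (0.133).

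The sporophytic arrays differed from each other in the NAC family more than in most genes. The median log2 signal of the 30 NAC probe sets was 4.95, 5.56 and 5.53 on the pollen arrays, 5.92 on sporophytic replicate 1 and 3.63 on sporophytic replicate 2. A signal of 100 was reached by 12 NAC probe sets on sporophytic replicate 1 and by 5 on replicate 2. Replicate 1 was at least 2-fold above replicate 2 for 16 NAC probe sets (53.3%), against 8.54% of all probe sets. The opposite was found for 1 NAC probe set (3.33%), against 11.5% of all. The 16 probe sets stand for 10 genes, and their median distance was 3.10 on the log2 scale. With 1 array on each side this distance has no test.

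**Figure D2:**
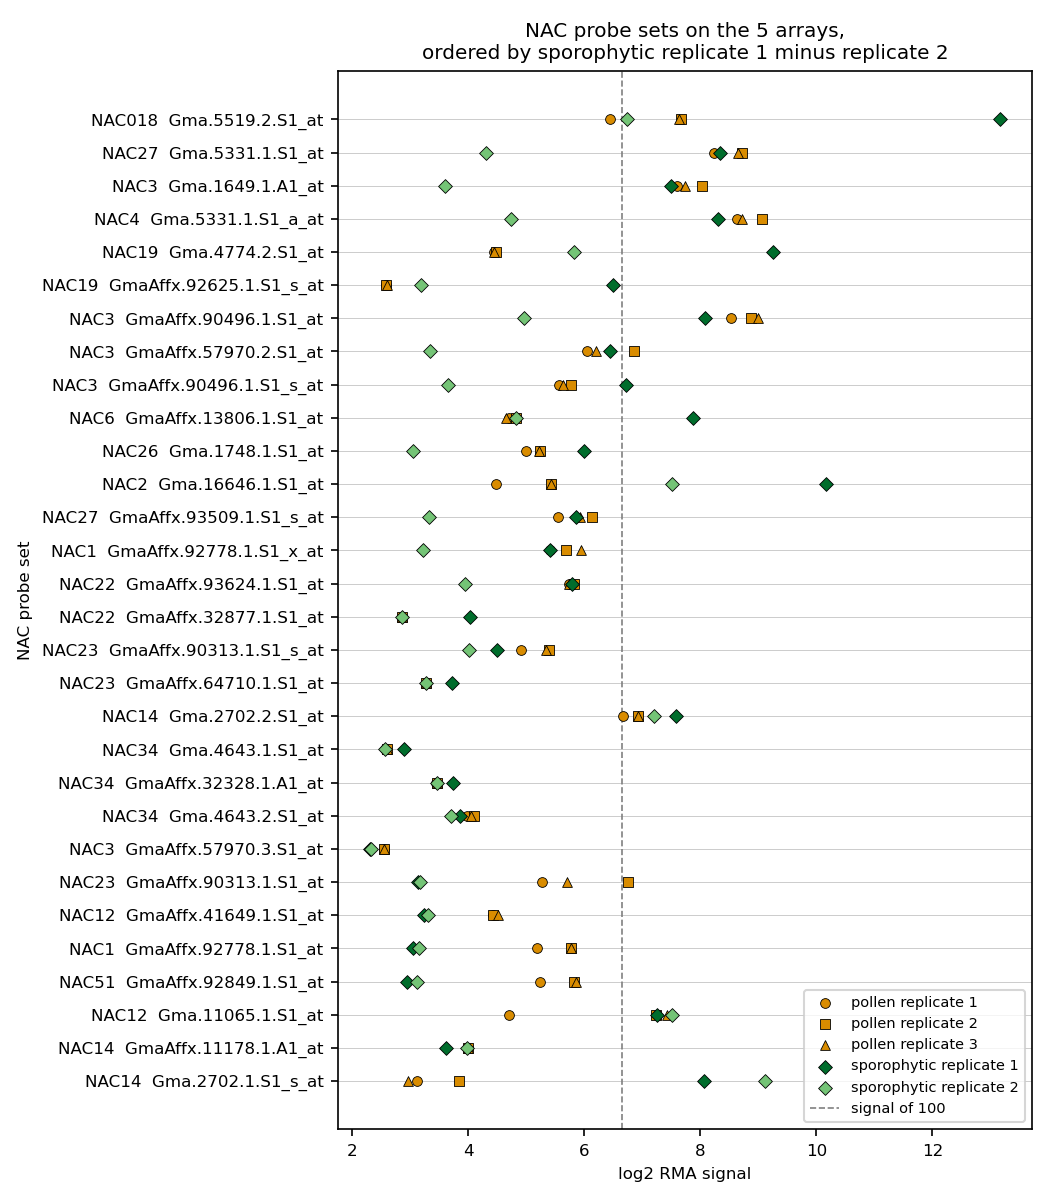
Log2 RMA signal (horizontal axis) of each of the 30 NAC probe sets on the 5 arrays, ordered from bottom to top by sporophytic replicate 1 minus replicate 2. Orange symbols are the pollen arrays, dark and light green diamonds are sporophytic replicates 1 and 2, and the dashed line marks a signal of 100 (6.64). In the upper rows the light green diamonds sit to the left of the dark ones, and for NAC3, NAC4 and NAC27 the dark diamonds lie beside the pollen symbols.

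NAC018 held the largest distance of the family. It had 13.17 on sporophytic replicate 1, the highest NAC signal on any array, and 6.74 on replicate 2, which is 86.3-fold apart. Pollen lay near replicate 2, with 6.45, 7.66 and 7.64. Next came the brighter probe set of NAC27 (a log2 distance of 4.04), the second brightest of NAC3 (3.89), NAC4 (3.57) and both probe sets of NAC19 (3.43 on the brighter and 3.31 on the dimmer). These are the 6 largest distances.

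NAC19 was high in replicate 1 and low in pollen. Its brighter probe set had 9.25 on sporophytic replicate 1, 5.82 on replicate 2 and 4.45, 4.49 and 4.44 in pollen. The dimmer one had 6.496, 3.18 and, in pollen, 2.59, 2.59 and 2.60. All pollen arrays thus lay below both sporophytic arrays on both probe sets, but neither passed, with log2 differences of -3.07 (95% interval -6.26 to 0.11, adjusted p = 0.0923 from limma) and -2.25 (-5.32 to 0.82, adjusted p = 0.166). The brighter one passed (adjusted p = 0.0383) when the probe sets tested were limited to those with a signal of 100 on at least 1 array.

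NAC6, NAC26 and NAC22 also stood apart between the sporophytic arrays. NAC6 had 7.88 on replicate 1 and 4.83 on replicate 2, with 4.71, 4.83 and 4.65 in pollen, so that only replicate 1 left the common level. NAC26 had 5.99 and 3.04, with pollen in between at 4.99, 5.24 and 5.21. NAC22 had 5.80 and 3.95 on its brighter probe set, where pollen read 5.74, 5.83 and 5.74. On the dimmer one it had 4.02 and 2.85, where pollen read 2.87, 2.86 and 2.86. The differences of the 4 probe sets did not pass, with adjusted p between 0.248 and 0.591 (limma).

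The middle probe set of NAC14 ran the other way. There sporophytic replicate 2 was 2.07-fold above replicate 1, the only NAC distance of that size in this direction. The next were the dimmest probe set of NAC14, with 3.61 on replicate 1 and 3.98 on replicate 2, and the brighter of NAC12, with 7.26 and 7.504. The brightest of NAC14 had the opposite order, with 7.57 on replicate 1 and 7.21 on replicate 2.

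The families of transcription factors most often named beside NAC were set against it. For WRKY factors, regulators of defence, 42 of 103 probe sets (40.8%) exceeded sporophytic replicate 2 at least 2-fold on replicate 1, with a median distance of 0.42. For MYB factors these were 21 of 102 (20.6%) with a median of 0.00, and for bZIP factors 7 of 89 (7.87%) with a median of -0.11. Smaller lists gave 4 of 12 (33.3%) for DREB and ERF factors and 2 of 15 (13.3%) for heat shock factors. The median was 1.51 for NAC and -0.08 for all probe sets. No test of the difference between families was made.

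**Figure D3:**
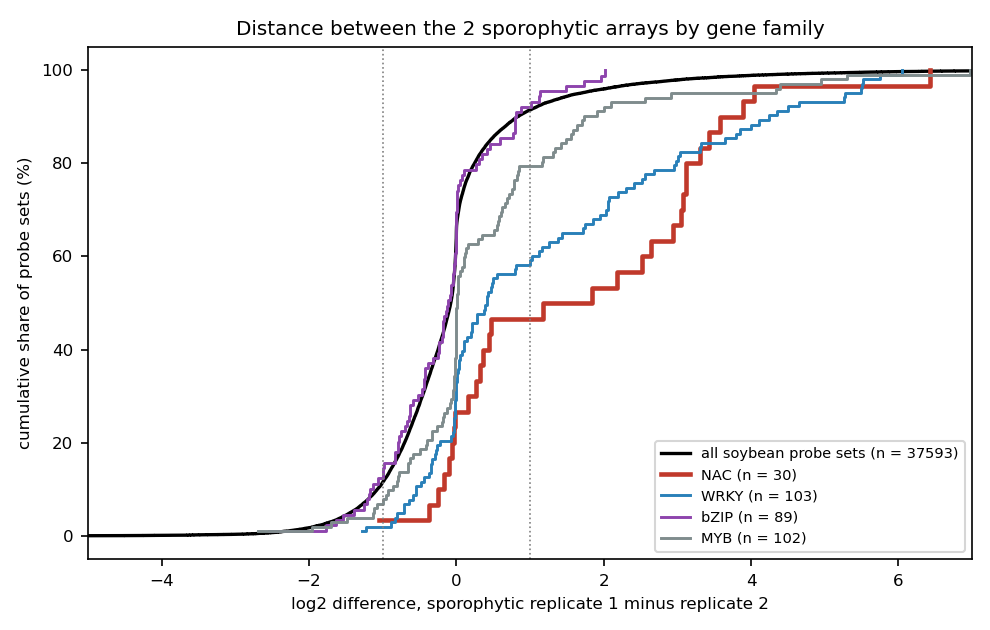
Cumulative share of probe sets (vertical axis, %) by the log2 difference between sporophytic replicate 1 and replicate 2 (horizontal axis) for 30 NAC, 103 WRKY, 89 bZIP and 102 MYB probe sets and for all 37593 soybean probe sets. Dotted lines mark a 2-fold distance in either direction. The NAC curve lies lowest at the right dotted line, beyond which 53.3% of the NAC probe sets are found, against 40.8% of WRKY, 20.6% of MYB and 7.87% of bZIP.

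Other transcripts moved between the sporophytic arrays as well. The signals of the 26 light-harvesting probe sets summed to 331711 on replicate 1 and 120554 on replicate 2, on the linear scale, against 1492 to 1825 on the pollen arrays. Their median distance was 1.25, with 20 of 26 higher in replicate 1 and 18 (69.2%) at least 2-fold so, a larger share than that of NAC. The leaf genes listed by symbol, CAB3 and PSAD, summed to 124220 and 67483 over 10 probe sets, against 1634 to 1889 in pollen, and 5 of the 10 were higher in replicate 1, 3 of them at least 2-fold. Heat shock proteins summed to 16986 and 8420 over 18 probe sets, against 5747 to 6241 in pollen, and 13 of the 18 were higher in replicate 1, 9 of them at least 2-fold. Their part in the NAC distances was not tested.

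The distance between the sporophytic arrays went along with the calls. Of the 16 NAC probe sets at least 2-fold higher in replicate 1 only NAC2 was called, and of the 13 less than 2-fold apart 6 were called. On the whole array 33.0% and 56.6% of such probe sets were called. The test takes its error from the same arrays. In the first set the pollen mean lay above both sporophytic arrays for 6, between them for 6 and below both for 4. It was nearer to replicate 1 than to replicate 2 for 10 of the 16 (62.5%), against 25.2% of the probe sets with this distance on the whole array. Most of these 10 are probe sets of NAC3, NAC4 and NAC27, and the others are of NAC1, NAC22 and NAC26. Probe sets of the same gene are not independent members.

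Set against each sporophytic array alone, the NAC family differed in balance. In these fits the lone sporophytic array is assumed to vary like the pollen arrays, and both use the same pollen arrays. Against replicate 1, 5 NAC probe sets were higher and 13 were lower in pollen, where 27.1 and 41.2% of all probe sets were called. Against replicate 2, 16 were higher and 4 were lower, where 26.6 and 44.2% were called. The median NAC difference was -0.05 against replicate 1 and 0.83 against replicate 2. NAC26 shows this at the level of 1 gene, with a log2 difference of -0.84 against replicate 1 and of 2.11 against replicate 2. The fourth of NAC3 had -1.07 and 2.01.

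Against replicate 1 alone, the pollen mean of NAC6 was lower by 3.15 on the log2 scale, and that of NAC018 by 5.92. Against replicate 2 alone these genes had differences of -0.10 and 0.51. NAC27, NAC4 and NAC3 behaved the other way. On their brightest probe sets they had differences of 0.19, 0.50 and 0.73 against replicate 1. Against replicate 2 the differences were 4.23, 4.08 and 3.84.

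Among the pollen arrays, replicate 1 was the lowest for 22 of the 30 NAC probe sets (73.3%), against 52.9% of all probe sets. The mean of replicates 2 and 3 exceeded replicate 1 by a median of 0.26 on the log2 scale over the NAC probe sets and of 0.03 over all. It did so at least 2-fold for NAC12 and NAC018. NAC12 on its brighter probe set had 4.71 on pollen replicate 1 against 7.24 and 7.43 on the others, and 7.26 and 7.504 on the sporophytic arrays. Replicates 2 and 3 of pollen were thus at the sporophytic level and replicate 1 was not, and the difference of -0.92 between the groups had an interval from -3.75 to 1.90 (adjusted p = 0.456 from limma).

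Probe sets of 1 gene did not always read alike. NAC12 was called higher on the dim probe set and not on the bright one. NAC14 fell by 5.28 on the middle probe set, while the brightest had 6.66, 6.92 and 6.92 in pollen and 7.57 and 7.21 in sporophytic tissues, a difference of -0.56 (adjusted p = 0.0514 from limma). The dimmest differed by 0.20 (adjusted p = 0.268). Endings in _s_at or _x_at, carried by 6 of the 30 probe sets, mark probes that can bind transcripts of several genes. The called NAC14 probe set and the brightest of NAC23 carry _s_at, so their differences cannot be assigned to 1 gene with certainty.

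NAC1 gave a further case, since both of its probe sets come from the same source sequence. On sporophytic replicate 1 the dimmer read 3.06 and the brighter 5.41, while both read 3.16 to 3.22 on replicate 2 and 5.19 to 5.95 in pollen. The brighter differed by 1.37 between the groups (95% interval -0.72 to 3.46, adjusted p = 0.202 from limma). NAC27 on its dimmer probe set had 5.55, 6.14 and 5.94 in pollen, 5.85 on sporophytic replicate 1 and 3.33 on replicate 2, the order seen at its brighter one too. The fourth of NAC3 had 5.56, 5.78 and 5.63 in pollen, 6.73 on replicate 1 and 3.65 on replicate 2. NAC34 was dim throughout, with signals of 2.57 to 4.09 on its 3 probe sets and no call (adjusted p between 0.0511 and 0.352). In all, 16 of the 30 NAC probe sets stayed below a signal of 100 on every array, a share similar to the 20617 of all 37593 probe sets that did.

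Probe sets left out by the rule were looked at beside the members. A NAC name stands among the RefSeq synonyms of the genes of a further 11 probe sets, whose array symbols are locus numbers. None of these was called, and 10 of the 11 (90.9%) were at least 2-fold higher in sporophytic replicate 1, with a median distance of 3.80. Those of the gene with the synonym NAC69 had 11.56 and 6.34 on the brighter and 10.77 and 5.54 on the dimmer. A further 5 probe sets carry several symbols with NAC among them. Of these, the probe set shared by NAC022 and NAC2 fell by 3.74 in pollen (adjusted p = 0.0144 from limma), and the one shared by NAC15 and NAC14 fell by 2.69 (adjusted p = 0.00734). The other 3 did not pass.

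NAC6 belongs to a cell death pathway described in soybean, in which the N-rich proteins NRP-A and NRP-B carry osmotic and endoplasmic reticulum stress to NAC factors and to a vacuolar processing enzyme (VPE), a protease that executes cell death. ERD15 activates the NRP-B promoter, and the chaperone BiP restrains the pathway. A list of these genes with protein disulfide isomerases, folding enzymes of the same compartment, held 18 probe sets. Pollen was higher for 2 of these, lower for 11 and not called for 5 (11.1 and 61.1%, against 18.9 and 34.5% of all probe sets), and the median was -3.09 against -0.22 over all probe sets. These counts and the median include the disulfide isomerases and genes with several probe sets. On its brighter probe set ERD15 fell by 5.15 ± 0.35 (adjusted p = 0.000943, limma). VPE2 on its dimmer probe set fell by 5.14 ± 1.08 (adjusted p = 0.0214). BIP4 on its dimmer probe set fell by 4.91 ± 0.05 (adjusted p = 2.56e-05). The higher calls were those of VPE, by 1.08 (adjusted p = 0.0187), with pollen signals of 3.56 to 4.17, and of the disulfide isomerase PDIQ-1A, by 2.06 (adjusted p = 0.00486).

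The N-rich proteins shared the distance of NAC6 between the sporophytic arrays. NRP-A on its brighter probe set had 13.10 on replicate 1 and 9.09 on replicate 2, and 6.38, 6.63 and 6.48 in pollen. NRP-B had 7.43 and 4.59, and 2.88, 2.89 and 2.87 in pollen. VPE2 on its brighter probe set had 12.34 and 8.80, and 5.09, 6.23 and 6.22 in pollen. In these genes, as in NAC6, replicate 1 stood above replicate 2, and unlike in NAC6 both stood above pollen. The differences of NRP-A (-4.60, adjusted p = 0.0502 from limma) and NRP-B (-3.13, adjusted p = 0.0558) did not pass. The 5 probe sets of NRP-A, NRP-B and VPE2 were the only ones of the list at least 2-fold higher in replicate 1, and the median distance of the list was 0.13. The probe sets of ERD15 and BIP4 named above had 13.05 and 12.27, and 10.03 and 9.98.

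**Figure D4:**
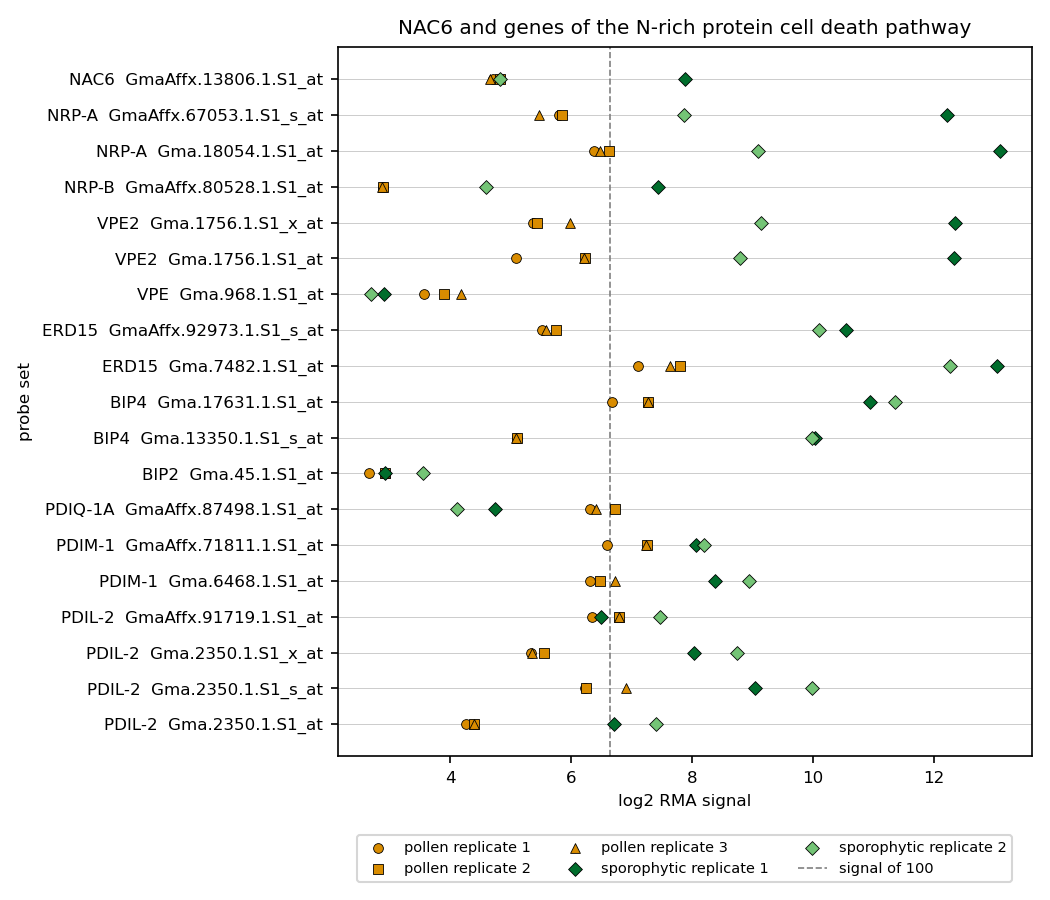
Log2 RMA signal (horizontal axis) of NAC6 and of the 18 listed probe sets on the 5 arrays. The list joins genes of the N-rich protein cell death pathway with disulfide isomerases. Symbols are those of the plot of NAC levels by array, and the dashed line marks a signal of 100. The dark green diamonds of sporophytic replicate 1 lie 2.85 to 4.35 log2 units to the right of replicate 2 for NAC6, NRP-A, NRP-B and VPE2, while ERD15, BIP4 and the disulfide isomerases (PDI) have both diamonds less than 1 unit apart.

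Other genes that NAC factors are known to act beside were counted. Lignin and secondary wall enzymes, which NAC master switches of Arabidopsis control, were higher in pollen for 1 of 14 probe sets and lower for 10, with 3 not called (7.14 and 71.4%, against 18.9 and 34.5% of all probe sets). PAL2.1, a phenylalanine ammonia-lyase at the entry of the pathway, fell by 7.48 on one probe set (adjusted p = 0.000245, limma) and was the gene called higher, by 1.22 (adjusted p = 0.0313), on another. C4H, the next enzyme, fell by 6.47 (adjusted p = 0.00249). The median distance between the sporophytic arrays was -0.07 for this list. Drought and abscisic acid genes were higher for 2 of 10, lower for 4 and not called for 4, shares of 20.0 and 40.0% that lie near those of all probe sets. ERD15, which the cell death list holds too, fell by 5.15 on its brighter and by 4.70 on its dimmer probe set. LEA-2, which protects drying cells, rose by 3.99 ± 0.25. The cold and drought factor DREB1-like had 8.14 on sporophytic replicate 1 and 2.54 on replicate 2, and 2.80, 2.87 and 2.84 in pollen. Of the meristem and organ boundary list only LBD23 and CLV1A were matched, and LBD23 fell by 4.12 on the log2 scale.

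NAC factors outside the 30 member probe sets were listed by the study among transcripts higher in pollen. The file names 3 such probe sets, matched to ANAC090 and ANAC073 of Arabidopsis and to a NAM-like protein of rice. The paper's own count of NAC factors is smaller and comes from a search with the matched Arabidopsis genes. The ANAC090 match had log2 signals of 10.12, 9.73 and 9.91 in pollen and 3.48 and 2.37 in sporophytic tissues. The ANAC073 match, whose Arabidopsis counterpart acts in secondary walls, had 8.03, 8.41 and 8.18 against 3.68 and 3.92. The NAM-like match had 9.07, 8.49 and 8.34 against 5.16 and 4.54. All 3 lay above 100 on each pollen array and below it on both sporophytic arrays, which none of the 30 NAC probe sets did. Since the study chose them on these arrays, their direction is not independent evidence. Of the file of lower transcripts only a part was used here, and the same search matched no probe set in it.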

How the data were processed

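RNA of mature pollen (3 samples) and of sporophytic tissues of seedlings (2 samples) was hybridised to Affymetrix soybean arrays. The authors imported raw signals into AffylmGUI and applied RMA (background correction, quantile normalization, median polish), and the deposited values are log2 signals of soybean probe sets. Its version is not given in the sources. Scanner intensities and present calls did not enter.

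Pollen and sporophytic arrays were tested with lmFit and eBayes of limma 3.58.1 (R 4.3.3) over all 37593 probe sets (prior variance 0.0107, 0.854 prior degrees of freedom, 3 residual), two-sided, with Benjamini-Hochberg adjustment and a threshold of 0.05. No filter and no block were used. Intervals are not adjusted. The number of arrays limits the precision, and depth is given as the share of signals of at least 100. Values equal on at least 2 arrays occurred for 8 of the 30 NAC probe sets and for 25.9% of all, which can narrow the spread.

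The annotation names 1 gene symbol for 8677 probe sets, more than 1 for 370, and no symbol for 28546. All 30 NAC probe sets matched the gene table of Glycine_max_v4.0, used for names only. The members and lists were chosen with earlier results of these data known. All members were counted. Those called higher, the 10 largest falls, the largest distances between the sporophytic arrays (6 in one direction and 3 in the other), those at a signal of 100 on every pollen array and genes with several probe sets were named, and up to 3 of each other list. DREB1-like, NRP-A, NRP-B, VPE, PDIQ-1A, CLV1A, the brighter probe set of VPE2 and the named probe sets outside the members were chosen after their values were seen. Of the steps only the limma fit was tested on simulated data, with few changed probe sets and the same spread in both groups. Alternatives covered the scaling, dim probe sets, shared probes, 1 probe set per gene, the threshold, a fold minimum, a trend of the variance with intensity, weights per array, the replicate number as a block and each array left out. Plots used Python 3.11.15 with matplotlib 3.10.9.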

Additional observations from a re-analysis of the deposited data

How the results depend on the processing

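The count of 6 NAC probe sets higher and 2 lower in pollen became 14 and 1 with quantile normalization of the soybean probe sets, 17 and 2 with equal medians (all probe sets: 13917 and 9940, and 20047 and 9837), 2 and 1 with 1 probe set per gene, 3 and 1 at an adjusted p under 0.01, 1 and 0 with array weights and 3 and 1 with the replicate number as a block. The counts with 1 probe set per gene are out of 15 and come from the main fit. There 18.9% of all probe sets were higher and 34.5% lower. With array weights the whole array had 2182 higher and 8350 lower calls, against 7104 and 12969. Its shares were 11.5% higher and 26.8% lower at an adjusted p under 0.01, and 9.34 and 23.0% with the block. Without probe sets ending in _s_at or _x_at 5 were higher and 1 was lower (all: 19.2 and 32.7%). Among probe sets with a signal of 100 on at least 1 array 1 was higher and 3 were lower (all: 3839 and 9880 of 16976). The brighter NAC19 was the call gained. With the 5 probe sets of several symbols, a choice made after seeing the data like that of the synonyms, 4 were lower. Leaving out 1 array gave 3 to 16 higher and 1 to 13 lower. The extremes were 16 higher without sporophytic replicate 1 and 13 lower without replicate 2. The count at 100 on both sporophytic arrays, 5, was 1 with quantile normalization, 3 with equal medians, 1 at a signal of 200, and 5 to 12 with 1 array left out. On every pollen array it was 5, with 8 at a signal of 50 and 3 at 200. The median difference of 0.37 was 1.31 and 1.52 under the scalings and -0.04 among probe sets with a signal of 100, and that between the sporophytic arrays (1.51) ran from 0.81 to 3.10.

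No called NAC probe set changed sign under any alternative. Of those not called, the sign turned with quantile normalization for the brighter NAC12 (0.53), the brightest NAC14 (0.95), the middle NAC34 (0.35) and the dimmest NAC23 (0.15), and with equal medians for the same NAC12 (0.23) and NAC14 (0.59) probe sets, NAC34 (1.01 on the dimmest and the middle probe set), the dimmer NAC22 (0.57) and the dimmest NAC23 (0.92). With 1 array left out, the sign turned between -5.92 and 0.51 for NAC018, -0.30 and 0.02 for the dimmest NAC34, -1.16 and 0.0083 for the dimmer NAC22, -0.84 and 2.11 for NAC26, -0.078 and 3.03 for the third NAC3, -1.07 and 2.01 for the fourth, and -0.023 and 1.82 for the brighter NAC22, the first value of each without sporophytic replicate 2 and the second without replicate 1. Beyond what the construction of an alternative shows, the cause was not tested. Samples with the same replicate number deviated from their group means with correlations of 0.024 and 0.016, so the numbers are not taken to pair the samples. The block kept 4 of the 8 calls.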
